A study of Drosophila melanogaster with 6 samples.

Results

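Probe sets whose annotation lists more than 1 gene were examined in whole male Drosophila melanogaster. A probe set is a group of short probes read together as 1 signal. The signal of a probe set listed to several genes cannot be divided among them and is called a cluster total here. How much each listed gene adds to it was not measured. The members were selected on the number of genes in the platform annotation and on measured signal, with 3 or more of the 6 arrays required to read 100 or higher. Of 13966 probe sets without array controls, 327 listed several genes and 218 of these passed the filter. The 218 stood for 189 gene clusters and 411 genes. In all, 8251 probe sets passed the same filter and were tested together.

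All flies were virgin Canton-S males, 4 days old, kept alone in vials from day 3. Exposed males were placed with a virgin female and watched for 5 min, and only those that courted without mating were kept. Unexposed males were handled alike by mock aspiration but met no female. Each treatment had 3 pools of about 12 males, 1 array per pool, and exposed and unexposed arrays of the same replicate number were treated as a pair. RNA came from the male body as labelled, so fewer cells of a type and less RNA per cell cannot be told apart.

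Gene duplication often leaves copies side by side on a chromosome, and copies that remain nearly identical bind the same short probes. Other neighbours share a probe set because they share a transcript, as in a dicistronic locus, where 1 mRNA carries a pair of coding regions. Drosophila has well-known examples of both, such as the repeated histone genes and the Adh and Adhr pair, in which Adh encodes alcohol dehydrogenase.

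The label of duplicate genes was not checked by sequence for the 218 probe sets, and the positions of their listed genes varied. By Entrez ID, 404 of the 411 genes matched RefSeq's annotation of the Release 6 assembly, which was used for names and neighbours only. The listed genes had the same start and end in 79 probe sets (36.2%) and overlapped with unequal ends in 30 (13.8%). They were next to each other, with no protein-coding gene wholly between them, in 56 (25.7%). In 18 (8.26%) they lay on 1 chromosome arm with up to 10 genes between them, and in 9 (4.13%) with more. In 18 (8.26%) they lay on different arms, and in 8 (3.67%) a gene was not matched. In 31 members the listed symbols began with the same 3 characters. Members that listed any gene by a CG or CR number were not counted as such, so this is no count of all related names. No sequence identity between listed genes was computed here.

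The names of the probe sets themselves carry a design mark that the selection did not use. On this array type, an s in the name ending marks probes shared between transcripts and an f marks a sequence family, with i and r marking other relaxations of probe choice. Such a mark was carried by 37 of the 218 members (17.0%), 29 of them with s and 4 with f, and by 174 of the 7349 one-gene probe sets past the filter (2.37%). The mark stood on 23 of 56 members with adjacent genes (41.1%) and on 10 of 18 with up to 10 genes between (55.6%). It stood on 2 of 79 members with genes of the same start and end (2.53%) and on 0 of 30 with other overlaps.

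Most members listed 2 genes (206 of 218). Another 10 listed 3 genes, 1 listed 4, and 1 listed 19. The probe set with 19 genes stood for histone H4, a core histone. It covered 18 copies of the repeated cluster together with His4r on another arm. Its signal was 4513, 5026 and 4900 on exposed arrays 1 to 3 and 5025, 4446 and 4792 on the unexposed arrays, with a log2 ratio of exposed over unexposed of 0.02 (SE 0.13). The ranges overlapped and the shared signal of the histone H4 genes did not change past the test.

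The 5 members with the highest signals were the Met75Ca and Met75Cb pair, the Adh and Adhr locus and 3 probe sets for Jon99Cii and Jon99Ciii, which encode digestive serine endopeptidases. Signals of different probe sets are listed side by side only, since brightness also depends on the probes. Met75Ca and Met75Cb read 8544, 11540 and 11068 in exposed and 10581, 11421 and 11111 in unexposed males. Adh and Adhr read 6415, 10800 and 10222 in exposed and 8366, 10242 and 10073 in unexposed males. In both clusters the replicate 1 arrays were the lowest of their treatment, and the log2 ratios were -0.10 (SE 0.14) and -0.10 (SE 0.15). The 3 Jon99C probe sets ranged from 6771 to 10797 and their log2 ratios were -0.08, -0.12 and -0.05.

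Male reproductive clusters were among the bright members. ProtA and ProtB, the adjacent genes for protamines that pack sperm DNA, read 2496, 2743 and 3118 in exposed and 2880, 3120 and 2781 in unexposed males. Acp33A, an accessory gland protein gene, shared its probe set with CG15841 and read 5961, 3671 and 3543 against 6255, 3884 and 3418. Its 2 replicate 1 arrays were the highest of each treatment. Another bright probe set, that of scpr-A, scpr-B and scpr-C, was in no gene list used here. It read 4693, 4543 and 5383 against 5254, 4885 and 4768. None of these 3 clusters separated exposed from unexposed males, and their log2 ratios were -0.08, -0.03 and -0.03.

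Bright energy and protein synthesis clusters were close to even as well. The probe set of CG14645 and RpL36A, a ribosomal protein gene, read 6706, 7459 and 6926 in exposed and 7290, 7265 and 7235 in unexposed males. For lcs and sesB, of which sesB encodes the mitochondrial ADP/ATP carrier, the signals were 5093, 7951 and 7582 against 5988, 7890 and 7885. COX6B, a cytochrome c oxidase subunit, shared a probe set with CG18809 that read 4707, 6603 and 6195 against 5154, 5967 and 5842. ATPsynG, a subunit of ATP synthase, was listed with beat-Vb at 5138, 5598 and 5527 against 5767, 4917 and 5056. The log2 ratios of these 4 clusters lay between -0.09 and 0.05, and the ranges of the treatments overlapped in each. The lcs and sesB cluster was chosen outside the naming rules given below. Dimmer members of the ribosomal and respiratory lists were RpLP0 and euc at 0.27 (SE 0.23) and CG34316 and mRpS10 at -0.25 (SE 0.21). COX6AL2 and Ir75d gave -0.28 (SE 0.19) and CG33493 and ND-13B gave 0.02 (SE 0.15). None of them was past an unadjusted limma p of 0.05, but RpLP0 and euc passed it without replicate 1, at 0.57. The separate probe set of RpLP0 read 4043 to 5712 with a log2 ratio of -0.11 (SE 0.17), and -0.40, -0.01 and 0.08 in the pairs.

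To ask whether 5 min of courtship changed these cluster totals, both treatments were set against each other in limma, with replicate as a block. At an unadjusted p under 0.05, 6 members were lower in exposed males (2.75%) where 2.12% of all tested probe sets were lower, and 1 was higher (0.459%) where 0.376% were higher. Together 7 members were past this threshold, 3.21% against 2.50% of all tested, so the share was near the background. After median centring or quantile normalization of the arrays, 3 members were higher and 4 lower in place of 1 and 6. The split over all tested probe sets then moved from 31 higher and 175 lower to 135 and 95 with centring, and to 189 and 122 with quantile normalization. At p under 0.001, 1 member was called, as 1 of only 2 such probe sets among all 8251 tested (0.0242%). The study used this threshold with a paired Cyber-T test and in general asked for it in at least 2 of 3 expression summaries. Here it was applied to 1 summary. After Benjamini-Hochberg adjustment limma called 0 members. Cyber-T is the paired test with a prior from probe sets of like intensity. On log2 signals it gave 3 members lower at p under 0.001, against 0.255% of all tested. It gave 1 member an adjusted p under 0.05, for which the share of all tested is not given here.

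The members as a whole followed the rest of the array. Their median log2 ratio was -0.081 and that of all tested probe sets -0.086. By pair the members' medians were -0.224, -0.079 and 0.082, and those of all tested -0.211, -0.083 and 0.054. Of the members, 39 were lower in exposed males in all 3 pairs (17.9%, all tested 18.4%) and 12 were higher in all 3 (5.50%, all tested 6.23%). Every exposed array was below every unexposed array for 6 members, where 1.76% of all tested did so, and above for 1 member, where 0.255% did so. Of these 7 clusters, 3 were also among the 7 with p under 0.05. In 9 members the ratio was beyond 2-fold, all lower in exposed males (4.13%, all tested 1.96% in either direction).

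The locus of CG30080 and CG42662, genes with the same start and end, gave the lowest p among the members, and the only one under 0.001 in limma. Its signal was 135, 87.5 and 74.0 in exposed males and 508, 985 and 657 in unexposed males. All 3 exposed pools lay below all 3 unexposed pools. The log2 ratio was -2.85 (SE 0.34, adjusted p = 0.905), and it was -1.92, -3.49 and -3.15 in the pairs. Cyber-T gave an adjusted p of 0.00832 on log2 signals and 0.0285 on untransformed signals. With each pair left out in turn, the log2 ratio lay between -3.32 and -2.53. Of the 7 members with p under 0.05 it was the only one still past that threshold whichever pair was left out, and with no replicate block it and the probe set of RSG7 and SPH93 were past it, while the other 5 were not. The signal is listed to both genes and does not say which of them it came from.

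Of the other 5 members lower at this threshold, 2 stood for an immune gene. SPH93, also CG6639, encodes a serine protease homologue and was among the genes listed as changed in the study, so it is no independent evidence here. It shared its probe set with RSG7, a regulator of G-protein signalling on another arm. The signals were 477, 46.2 and 16.9 in exposed and 655, 806 and 669 in unexposed males, and the groups did not overlap. The log2 ratio was -3.30 (SE 0.97, adjusted p = 0.905), but only -0.46 in pair 1, where it was -4.13 and -5.31 in pairs 2 and 3. RSG7 had a probe set of its own, below the filter, at 10.4 to 29.3 on the 6 arrays, with a log2 ratio of -0.13 (SE 0.18).

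IM18, an immune-induced peptide gene, shared a probe set with CG10332. It read 3175, 564 and 351 in exposed and 3609, 2093 and 1546 in unexposed males, and the groups overlapped through exposed array 1. The log2 ratio was -1.41 (SE 0.42, adjusted p = 0.905), and CG10332 was likewise among the genes the study listed as lower. CG2217 and CG42740, at 1 locus, had the same form, with 301, 49.5 and 59.5 against 295, 307 and 163 and a log2 ratio of -1.35 (SE 0.52, adjusted p = 0.905), and also stood for a gene of the study's lists. In both, pair 1 was near even, at -0.18 and 0.03, and without replicate 1 the ratios were -2.02 and -2.04.

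PGRP-SC1a and PGRP-SC1b, a duplicated pair for secreted peptidoglycan recognition proteins that cut bacterial cell wall fragments, had 2 probe sets. The first read 346, 413 and 383 in exposed and 561, 486 and 420 in unexposed males, and its groups did not overlap. The second read 102, 244 and 236 against 221, 279 and 290, and its groups overlapped. Log2 ratios were -0.36 (SE 0.16, adjusted p = 0.905) and -0.54 (SE 0.23, adjusted p = 0.905), and both probe sets were lower in all 3 pairs without passing the test. In contrast with the clusters above, the largest gap was in pair 1, at -0.70 and -1.12, and without replicate 1 the ratios were -0.18 and -0.25.

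Of the list of peptidoglycan recognition proteins and lysozymes, 2 members and 16 one-gene probe sets were tested, of which 0 members and 1 one-gene probe set were lower at p under 0.05. Of the immune-induced peptides the 1 shared probe set (IM18 and CG10332) and 1 of 9 one-gene probe sets were lower. The antimicrobial peptide list held 0 members and 7 one-gene probe sets, of which 5 were lower. These counts stand beside the 2.12% of all tested probe sets that were lower, and because the study's list of lowered genes was drawn from the same arrays and holds antimicrobial and immune-induced peptide genes, they are not independent evidence. The 4 members of the serine protease list were the Jon99C and SPH93 probe sets, and 0 of 25 one-gene probe sets of that list were past the test. The heat shock list had 4 members with log2 ratios from -0.27 to 0.02, 0 of them past the test.

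The other 4 clusters with p under 0.05 had smaller ratios, and 3 of them were chosen after their values were seen. For hoip, a small nucleolar ribonucleoprotein gene, and pins, a spindle orientation gene on another arm, the signals were 409, 277 and 265 in exposed and 541, 387 and 418 in unexposed males. The log2 ratio was -0.52 (SE 0.13, adjusted p = 0.905), whereas both probe sets of pins alone gave -0.09 (SE 0.15) and -0.05 (SE 0.17). CG33672 and Mvk, mevalonate kinase, at 1 locus, read 199, 193 and 204 against 259, 240 and 312 with no overlap and a log2 ratio of -0.43 (SE 0.13, adjusted p = 0.905). CG33981 and fab1, a phosphoinositide kinase gene, read 127, 174 and 173 against 166, 244 and 208 (log2 ratio -0.38, SE 0.13, adjusted p = 0.905), with overlapping groups. None of these 3 clusters was past an unadjusted p of 0.05 after median centring or quantile normalization. Their log2 ratios were then -0.40, -0.32 and -0.26 with centring and -0.44, -0.34 and -0.28 with quantile normalization.

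The cluster of CG12546 and CG14452 was the 1 member higher in exposed males at this threshold, with 974, 114 and 97.0 against 497, 102 and 71.5 (log2 ratio 0.52, SE 0.20, adjusted p = 0.905). Both replicate 1 arrays were far above the other 4, so the groups overlapped. The ratio was 0.30 without replicate 1 and 0.57 without replicate 3, both no longer past the threshold, and 1.14 with quantile normalization. It also missed the threshold with no filter (0.52) and with 32 added to every signal (0.46). CG14933 and CG42486, which overlap in the genome, were the 1 member whose groups were separate with exposed males higher. They read 2725, 2607 and 2822 in exposed and 2299, 2280 and 1630 in unexposed males (log2 ratio 0.41, SE 0.17, adjusted p = 0.905). Unexposed array 3 was the lowest, and without replicate 3 the ratio was 0.22.

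Another 5 clusters had ratios beyond 2-fold that rested on exposed array 1. CG32269 and CG32270 were listed at 0 on that array and read 410 and 348 on the other exposed arrays, against 525, 415 and 418 in unexposed males. Because a signal of 0 was set to 1 before taking logs, their log2 ratio of -3.11 (SE 1.95) has no fixed size. In Ant2 and sesB, the tandem pair of ADP/ATP carrier genes, the signals were 0, 414 and 409 against 68.0, 275 and 503. CG42374 and Mettl5 read 0, 137 and 151 against 34.8, 122 and 110. In CG18170 and CG33791 the signals were 20.3, 175 and 259 against 328, 326 and 230, and a second probe set of this locus gave a log2 ratio of -0.19 (SE 0.22). IA-2, a phosphatase-like vesicle protein gene, and ref(2)P, an autophagy receptor gene, shared a probe set that read 123, 578 and 573 against 779, 853 and 707. The separate probe set of ref(2)P gave a log2 ratio of 0.11 (SE 0.15) and that of IA-2 gave -0.28 (SE 0.17), beside -1.17 (SE 0.50) for the shared one. None of the 5 was past an unadjusted p of 0.05 in limma. In CG32269 and CG32270 and in IA-2 and ref(2)P the groups did not overlap. Without replicate 1 their ratios were -0.14 and -0.43, and the second of these was past the threshold. For Ant2 and sesB and for CG42374 and Mettl5 the ratios of -1.93 and -1.50 became 0.14 and 0.31 without replicate 1. IA-2 and ref(2)P also passed with median centring (-1.06), after adding 32 throughout (-1.07), with a floor of 50 (-1.17), with 100 required on all 6 arrays (-1.17) and by Cyber-T. CG32269 and CG32270, and the first probe set of CG18170 and CG33791, passed by Cyber-T on log2 signals.

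The replicate 1 arrays of both treatments stood apart from the other 4 arrays. Hybridization was done at either of a pair of core facilities, and the sources used here do not give which arrays were done where, so a part of the facility in these values was not tested. For 48 members (22.0%) both replicate 1 arrays were above the others, where 28.0% of all tested were, and for 127 members (58.3%) both were below, where 57.2% were. Gdi and Taf11, listed together though more than 10 genes apart, read 1338 and 861 on the replicate 1 arrays and 123 to 182 on the others. The separate probe set of Gdi ran the other way, at 253 and 419 on the replicate 1 arrays and 882 to 1072 on the others. CG15024 and Pdh read 1848 and 632 against 156 to 169, and Hyls1 and chif read 2538 and 1958 against 457 to 497. On all 6 arrays the separate probe set of Pdh read 1898 to 2791 and that of chif 78.6 to 108. Cyp12d1-d and Cyp12d1-p, adjacent copies of a cytochrome P450 gene, were listed at 0 on both replicate 1 arrays and read 245 to 334 on the others. The separate probe set of Cyp12d1-d, below the filter, read 72.6 and 67.2 on the replicate 1 arrays and 92.7 to 138 on the others. Nfs1 and Qtzl were also listed at 0 on both replicate 1 arrays and read 200 to 301 on the others. The separate probe set of Nfs1, a cysteine desulfurase gene, read 626 to 1187 on all 6. These clusters, apart from Gdi and Taf11, were chosen after their values were seen.

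Across all probe sets the array medians ranged from 107 to 133. Of the markers of male tissue, 9 of 10 testis genes and 11 of 13 accessory gland genes were measured, and each of these passed the filter. Of 14 ovary and eggshell genes 10 were measured and 7 passed. The summed signal of these 10 was 8980 and 9124 on the replicate 1 arrays and 3220 to 3661 on the others, with exposed arrays at 3259 to 9124 and unexposed arrays at 3220 to 8980. The 5 fat body markers were Yp1, Yp2, Yp3, Lsp2 and Fbp1, of which the Yp genes encode yolk proteins. Their sum was not read as an amount of male fat body. It was 2831 and 3430 on the replicate 1 arrays and 1088 to 1799 on the others. Exposed arrays were at 1152 to 3430 and unexposed arrays at 1088 to 2831. For testis markers the sums were 35463 and 42110 on the replicate 1 arrays and 31294 to 35989 on the others. For accessory gland markers they were 36863 and 38528 against 36160 to 40726. Muscle markers gave 4513 and 4613 against 4528 to 5217, and gut markers 5871 and 5887 against 5373 to 5961. Of 5 ejaculatory duct and bulb markers and 4 eye markers, 0 were matched to a probe set. The part of the replicate 1 differences in the members' values, the immune clusters included, was not tested.

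Members that shared a gene formed 27 groups with 56 probe sets. In 22 groups each probe set listed the same genes, and in 5, such as the probe sets of Ant2 and sesB and of lcs and sesB, the lists differed, so these are not repeat readings of 1 total. The probe sets of CG12923 and CG30008 read 4633 to 6116 and 72.1 to 211, and both had a log2 ratio of -0.01. The sloth1 and sloth2 locus, a dicistronic pair of mitochondrial protein genes, had log2 ratios of -0.05 and -0.15.

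At least 1 gene of 78 members also had a probe set of its own, which passed the filter in 58 members. In 34 of 69 comparisons past the filter, the gene's own probe set read higher than the shared one. Because brightness also depends on the probes, these levels do not show how much each gene adds to a cluster total. For Ant2 the own probe set read 911 to 1805 with a log2 ratio of -0.02 (SE 0.14), and for sesB it read 6752 to 8079 with -0.04 (SE 0.15). ProtB alone gave -0.06 (SE 0.20) beside -0.08 (SE 0.14) for ProtA and ProtB together.

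The remaining probe sets with 3 or more genes, and Hsp22 of the heat shock list, did not pass the test. CG12896, Prx6b and Prx6c, a peroxiredoxin group, read 1561, 1782 and 2025 in exposed and 1680, 1581 and 1726 in unexposed males (log2 ratio 0.10, SE 0.14). The probe set listing CG12519, CG14096 and CG18294 read 1197, 462 and 458 against 1415, 497 and 478, with both replicate 1 arrays highest. The locus of CG42379, CG42380, CG42381 and PIG-M, a GPI-anchor enzyme gene, read 147, 292 and 328 against 177, 326 and 282. CG4456 and Hsp22, a small heat shock protein gene, had 2 probe sets with log2 ratios of -0.08 (SE 0.24) and 0.02 (SE 0.14).

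Of the 218 members, 159 were at 100 or more on all 6 arrays, 38 passed on only 3 or 4 arrays, and 0 passed through the 3 arrays of 1 treatment alone. Just inside the filter, CG4975 and CG4984 read 50.3, 95.8 and 103 in exposed and 49.0, 121 and 103 in unexposed males. Just outside it, CG31855 and Tap42 read 18.7, 96.4 and 120 against 27.8, 97.0 and 104, and PGRP-LD and Pmi read 295, 98.3 and 72.4 against 192, 86.8 and 83.1.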

How the data were processed

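The authors deposited 1 intensity per probe set and array for 6 one-colour Affymetrix Drosophila version 1 arrays. GCOS 1.2 is named in the submitters' processing notes, and further summaries are named in the methods. Which summary the deposited intensities hold was not given in the sources used here. Signals under 1 were set to 1 and log2 values were used without another normalization step. Genes came from the platform annotation and were matched to RefSeq by Entrez ID. Array controls (44 of 14010 rows) were left out. The treatments were compared by limma (version 3.58.1, R 4.3.3; moderated test, two-sided, Benjamini-Hochberg over 8251 probe sets), with the replicate number as a block, and with Cyber-T rewritten (window 101, prior weight 10) as an alternative. The fit was checked on simulated data. The study used a paired test on groups collected in parallel. Deviations of same-numbered arrays correlated at 0.844, 0.760 and 0.780, and those of differently numbered replicates 2 and 3 at 0.806 and 0.814. The difference between replicates 2 and 3 correlated at -0.332 between treatments. Precision is limited by 3 arrays per treatment. The members and gene lists were chosen with earlier results of these data known. Clusters were named by p, by the 6 lowest and 6 highest ratios of constant sign, by membership of the study's lists, by brightness, by family, by closeness to the filter and by number of genes. No sequences were printed, because no sequence table was used here.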

Additional observations from a re-analysis of the deposited data

How the results depend on the processing

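Members lower and higher in exposed males at p under 0.05 numbered 6 and 1 and became 2 and 0 with no replicate block, where 10 and 0 of all 8251 were called. The higher count was 3 with quantile normalization and 3 with median centring, where 2.29% and 1.64% of all tested were higher. It was 4 with no filter and 2 with an intensity trend in eBayes, where 0.544% and 0.424% of all tested were higher. Cyber-T gave 14 lower and 2 higher on log2 signals (all tested 3.41% lower and 0.448% higher) and 10 lower and 2 higher on untransformed signals (all tested 2.68% lower and 0.545% higher), with 3 members at p under 0.001 and 1 at adjusted p under 0.05 on either scale. The 1 member at p under 0.001 became 0 with quantile normalization. The count was also 0 when a signal of 100 was required on all 6 arrays (159 members). That filter left out the 1 member itself, CG30080 and CG42662, which read 87.5 and 74.0 on exposed arrays 2 and 3. Leaving out 1 replicate pair gave 4 to 10 lower and 0 to 3 higher, where 97 to 255 of all tested were lower and 14 to 128 higher. These fits gave 0 to 3 members at p under 0.001. Shares of all tested are not given for these counts at p under 0.001, or for Cyber-T at adjusted p under 0.05. With only near genes listed, an alternative chosen after seeing the data, 3 of 183 were lower, where 2.12% of all tested were. The share of several-gene probe sets past the filter, 66.7%, was 48.6% at 100 on all arrays and 48.3% at 200 on 3 arrays. Of one-gene probe sets, 59.1% passed the main filter. With median centring the median of all probe sets went from -0.086 to 0.033. The causes of the other changes were not tested.

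Of 44 named log2 ratios, 19 changed sign under some alternative, each with a main log2 ratio between -0.25 and 0.19. Of these, 3 changed sign only under median centring or quantile normalization, which moved the median of all probe sets by 0.119 and 0.099. With quantile normalization the changed values were 0.07 (CG4456 and Hsp22, first probe set), 0.00 and 0.03 (Jon99Cii and Jon99Ciii), 0.02 (CG14645 and RpL36A), -0.16 (CG11566 and stg1), 0.05 (CG42379, CG42380, CG42381 and PIG-M) and 0.04 (scpr-A, scpr-B and scpr-C). With median centring they were 0.04 (CG4456 and Hsp22), 0.04 and 0.07 (Jon99Cii and Jon99Ciii), 0.07 (CG14645 and RpL36A), 0.02 (Met75Ca and Met75Cb), 0.02 (Adh and Adhr), 0.12 (CG17724 and Kdm4B), 0.02 (CG4975 and CG4984), 0.05 (CG42379, CG42380, CG42381 and PIG-M) and 0.09 (scpr-A, scpr-B and scpr-C). Adding 32 to every signal gave 0.01 for CG17724 and Kdm4B. With 1 replicate pair left out, the ranges of those that changed sign were -0.25 to 0.24 (CG4456 and Hsp22, first probe set), -0.10 to 0.08 (CG4456 and Hsp22, second probe set), -0.53 to 0.28 (Acbp3 and Hsc70-4), -0.40 to 0.01 (CG34316 and mRpS10), -0.02 to 0.12 (CG18809 and COX6B), -0.02 to 0.16 (ATPsynG and beat-Vb), -0.08 to 0.16 (CG33493 and ND-13B), -0.36 to 0.49 (Cpr57A and Obp57d), -0.16 to 0.00 (Met75Ca and Met75Cb), -0.18 to 0.05 (Adh and Adhr), -0.18 to 0.10 (CG17724 and Kdm4B), -0.18 to 0.45 (CG11566 and stg1), -0.17 to 0.02 (CG4975 and CG4984), -0.06 to 0.10 (the histone H4 genes), -0.22 to 0.03 (CG42379 and CG42380 and CG42381 and PIG-M) and -0.13 to 0.04 (scpr-A and scpr-B and scpr-C). No protein sequences were used here, so the planned comparison of identity thresholds between listed genes was not run. Signals near the lower limit and the 5 members with a signal under 1 on an array limit precision.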

Other observations

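Another 109 probe sets listed to several genes fell below the filter, and 51 of them were at 100 or more on 1 or 2 arrays. With no filter, 6 of the 109 (5.50%) passed an unadjusted limma p of 0.05, where 2.67% of all 13966 did, and 0 passed after adjustment. The 13966 take in the 8251 past the filter, so this is not a like comparison. The share among the other probe sets below the filter was not computed. KP78a and KP78b, a duplicated pair of protein kinase genes, gave the lowest p of the 6. Their probe set read 569, 39.4 and 38.0 in exposed and 288, 26.2 and 16.9 in unexposed males, with a log2 ratio of 0.91 (limma adjusted p = 0.920), and was higher in exposed males in all 3 pairs. Both replicate 1 arrays lay far above the other 4. CG18478 and CG31827 gave a log2 ratio of 0.70 and CG33630 and CG33631 gave -0.52. Lcp65Ag1 and Lcp65Ag2, duplicated larval cuticle protein genes, gave 2.07 at signals near 0.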
